A study of Mus musculus with 7 samples.

Results

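Immediate early and acute stress genes are a class of genes that cells switch on within minutes of a stimulus, from transcription factors that are already present. A list of 34 such genes was followed in the prostate of Nkx3.1-/- mice that received N-acetylcysteine (NAC) or vehicle. The members were found by symbol in the table of expression values, and had a gene had several probe sets, the brightest on average would have been taken. Of the 34 genes, 33 were measured, each by 1 probe set, among 18938 genes in all. Jund was not analysed here.

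All mice were homozygous null for Nkx3.1, a homeobox gene of the prostate epithelium, and of a strain labelled recombinant inbred B6/129. From weaning, vehicle mice (3 arrays, replicates 1, 2 and 4) drank plain water and NAC mice (4 arrays, replicates 1 to 4) drank water with 5 mM NAC, an antioxidant and precursor of glutathione. The treatment lasted 13 weeks, the mice were 16 weeks old, and mice of the study were injected with BrdU, a label of DNA synthesis, before sacrifice. Each Affymetrix Mouse Gene 1.0 ST array held RNA of 1 mouse. The study set out to learn which genes respond when NAC is given to mutant mice. Wild-type mice were not on arrays, so nothing below compares mutant with normal prostate. Littermates were divided between cages of either treatment, so cage and treatment cannot be told apart. The extraction protocol names the anterior prostate, while the tissue label names the whole prostate.

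The best known pathway to these genes runs from growth factor and stress receptors through the ERK, JNK and p38 MAP kinases to the serum response factor SRF with its ternary complex partners and to CREB, which sit on the promoters before the stimulus arrives. The first wave of products includes transcription factors of the AP-1, EGR, NR4A and KLF families, which act on later genes. It also includes inhibitors such as Dusp1, Zfp36 and Socs3, which shut the signal or the transcripts down again. Most of these transcripts are short-lived, so a burst is over soon after the stimulus. In the prostate, Egr1 and Myc are known as promoters of tumor growth in mouse models, and Klf6 as a gene that restrains it.

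The arrays were alike as a whole, with array medians of 7.12 to 7.16 on the log2 scale and correlations between arrays of 0.995 to 0.998. Markers of prostate luminal epithelium (10 measured of 12, among them Krt8, Hoxb13 and Tgm4) had a mean log2 level of 11.87 to 12.03 on every array. NAC replicate 3 stood apart. Its mean log2 level of 6 lung epithelium genes was 8.06, against 5.45 to 5.56 on the other arrays, and genes of adipocytes (8.01) and skeletal muscle (7.58) were also at their highest there. The spread, the median correlation between members, and the members' counts and median difference are therefore given with and without it. Other results include it unless stated. Genes of the seminal vesicle, a gland beside the anterior prostate, had a mean log2 level of 10.69 to 11.25 on vehicle arrays and of 8.92 to 11.14 on NAC arrays. All 8 of these genes had a lower mean with NAC, with a median log2 difference of -0.96.

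Members of the list differed between mice of the same treatment more than between treatments. On vehicle replicate 2, NAC replicate 2 and NAC replicate 4, 26 to 28 of the 33 members lay above their own mean over the 7 arrays. On vehicle replicate 4, NAC replicate 1 and NAC replicate 3, only 5 to 8 did, and on vehicle replicate 1 it was 15. For all genes, the share above their own mean ranged from 46.7% to 55.1% per array. Averaged over the members, the log2 deviation from the 7-array mean was -0.04 on vehicle replicate 1, 0.17 on vehicle replicate 2 and -0.19 on vehicle replicate 4. It was -0.14, 0.17, -0.08 and 0.12 on NAC replicates 1 to 4. Both groups thus held high and low arrays, and the group means of this deviation were -0.02 ± 0.18 in vehicle mice (SD, n = 3) and 0.02 ± 0.15 in NAC mice (SD, n = 4). Vehicle replicate 4 was the lowest array for 15 members and the highest for 0, whereas NAC replicate 2 was the highest for 11.

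**Figure D1:**
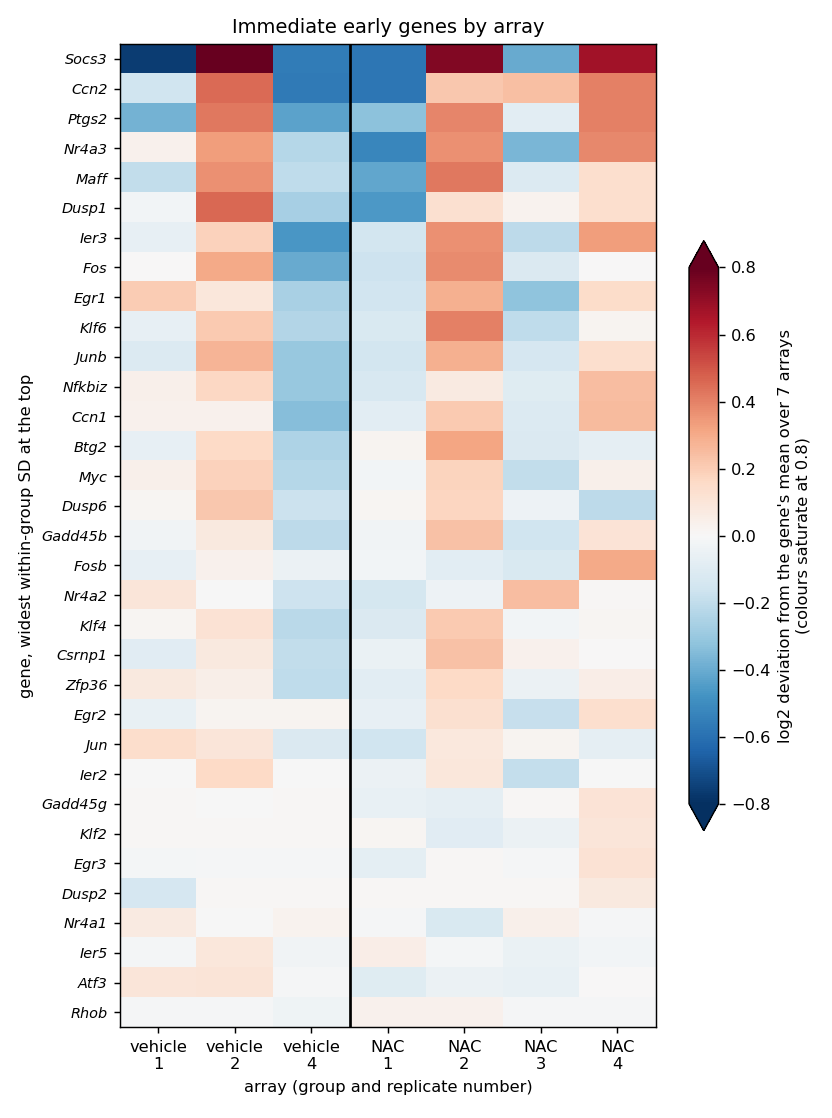
Log2 deviation of each of the 33 measured genes (rows, widest within-group SD at the top) from its own mean on each of the 7 arrays (columns), red above and blue below the mean. Red columns at vehicle replicate 2, NAC replicate 2 and NAC replicate 4 and blue columns at vehicle replicate 4 and NAC replicate 1 stand on both sides of the line that divides the groups, while the rows from Gadd45g down hardly vary.

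The AP-1 factors are dimers of Fos and Jun proteins that bind the genes of later waves. Fos, the archetype of the class, had log2 values of 6.74, 7.04 and 6.33 on vehicle replicates 1, 2 and 4 and of 6.57, 7.11, 6.62 and 6.74 on NAC replicates 1 to 4. Its highest array was 1.72-fold above its lowest, and the groups overlapped. Every Fos value lay under the array medians, which were 7.12 to 7.16. Junb, a dimer partner of Fos, was at 8.08, 8.46 and 7.89 in vehicle mice and at 8.04, 8.48, 8.06 and 8.32 in NAC mice, with the same arrays high and low. Jun varied less, at 9.42, 9.38 and 9.16 in vehicle mice and 9.12, 9.36, 9.30 and 9.20 in NAC mice. Here vehicle replicate 1 was the highest array. Fosb lay between 6.89 and 7.05 on 6 arrays and at 7.32 on NAC replicate 4. Maff, a small Maf protein that pairs with other leucine zipper factors, ranged from 6.29 to 7.13 on the log2 scale, a 1.79-fold span, and was highest on NAC replicate 2.

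Atf3, a stress-induced leucine zipper factor, departed from this pattern. It had log2 values of 9.63, 9.64 and 9.53 on the vehicle arrays and of 9.44, 9.49, 9.48 and 9.54 on the NAC arrays. NAC replicate 4 reached the lowest vehicle array, and the other NAC arrays lay below all vehicle arrays. Its within-group SD was 0.05, below that of most genes.

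Among the EGR zinc finger factors, which are activated by SRF, Egr1 carried most of the variation. It was at log2 values of 8.88, 8.77 and 8.42 in vehicle mice and 8.53, 8.97, 8.36 and 8.83 in NAC mice. Egr1 was high on the vehicle replicate 1 array, which was near its mean for Fos, and lowest on NAC replicate 3. Egr2 kept within 6.16 to 6.47 and Egr3 within 7.28 to 7.47.

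The NR4A genes encode orphan nuclear receptors that work without a known ligand and are classical targets of CREB. Nr4a3 was at log2 values of 7.90, 8.20 and 7.64 in vehicle mice and of 7.34, 8.23, 7.50 and 8.25 in NAC mice, so the NAC arrays alone spanned 1.87-fold. Nr4a1, at log2 values of 9.0, 8.93 and 8.96 in vehicle mice and of 8.92, 8.81, 8.97 and 8.92 in NAC mice, spanned 1.14-fold on all 7 arrays. It was lowest on NAC replicate 2, where 26 of the 33 members lay above their mean. Nr4a2 was highest on NAC replicate 3, at 8.86. The 3 paralogs therefore did not share one order of arrays.

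The KLF factors also divided. Klf4, which restrains epithelial proliferation and promotes differentiation, had log2 values of 7.97, 8.06 and 7.73 in vehicle mice and of 7.84, 8.16, 7.93 and 7.97 in NAC mice. Klf6 spanned 1.55-fold, from 9.36 on vehicle replicate 4 to its highest value on NAC replicate 2. Klf2, best known from endothelium, stayed between 7.43 and 7.63.

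The other transcriptional regulators of the list were all lowest on vehicle replicate 4. Btg2, an antiproliferative coregulator, was lowest on vehicle replicate 4 (9.39) and highest on NAC replicate 2 (9.95). Myc was lowest on vehicle replicate 4 (10.13) and at 10.54 on vehicle replicate 2 and NAC replicate 2. Nfkbiz, an atypical nuclear IκB protein, spanned 7.61 to 8.16 and was highest on NAC replicate 4. Csrnp1, a nuclear protein induced by axin and by growth signals, had log2 values of 7.37, 7.54 and 7.26 in vehicle mice and of 7.41, 7.70, 7.50 and 7.46 in NAC mice. Of the 4 NAC arrays, 3 lay within the vehicle range.

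Of the IER genes, short genes named for their immediate early response, Ier3 was the widest, with log2 values of 7.40, 7.65 and 7.00 in vehicle mice and of 7.32, 7.83, 7.26 and 7.80 in NAC mice. Ier2 was at 7.37, 7.54 and 7.37 in vehicle mice and at 7.33, 7.47, 7.19 and 7.37 in NAC mice. In Ier5 all values lay between 6.41 and 6.55.

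The feedback inhibitors held the gene with the largest spread of the list. Socs3, which is induced by STAT3 and blocks cytokine receptors, had log2 values of 6.97, 8.62 and 7.17 in vehicle mice and of 7.15, 8.47, 7.33 and 8.41 in NAC mice. The arrays fell into separate clusters, with vehicle replicate 2, NAC replicate 2 and NAC replicate 4 above 8.4 and the other 4 arrays at 7.33 or below. The highest array was 3.14-fold above the lowest, and both groups had arrays in either cluster. Dusp1, a nuclear phosphatase that inactivates p38, JNK and ERK, ranged from 8.47 on NAC replicate 1 to 9.38 on vehicle replicate 2. Dusp6, which acts on ERK in the cytoplasm, spanned 8.80 to 9.22 and was lowest on NAC replicate 4. Zfp36, an RNA-binding protein that speeds the decay of AU-rich transcripts, spanned 8.57 to 8.93. Dusp2 read 6.08 on vehicle replicate 1, 6.29 on NAC replicate 4 and one shared value of 6.22 on the other 5 arrays.

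Among the effectors, Ptgs2 (COX-2, the inducible enzyme of prostaglandin synthesis) resembled Socs3. Its log2 values were 7.15, 7.95 and 7.10 in vehicle mice and 7.20, 7.92, 7.44 and 7.93 in NAC mice, again with 3 arrays near 7.9 and 4 well below. Ccn2 (connective tissue growth factor) was at 10.06, 10.67 and 9.66 in vehicle mice and 9.64, 10.43, 10.46 and 10.62 in NAC mice, a 2.04-fold span. Unlike Socs3, it was high on NAC replicate 3 as well. Ccn1, its matricellular relative, was at 8.12, 8.12 and 7.74 in vehicle mice and at 8.0, 8.29, 7.97 and 8.33 in NAC mice. Rhob, a small GTPase of endosomes, was the flattest member, at 8.81, 8.81 and 8.78 in vehicle mice and 8.85, 8.85, 8.81 and 8.81 in NAC mice. The growth arrest gene Gadd45b spanned 7.72 to 8.17, and Gadd45g spanned 8.72 to 8.90.

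**Figure D2:**
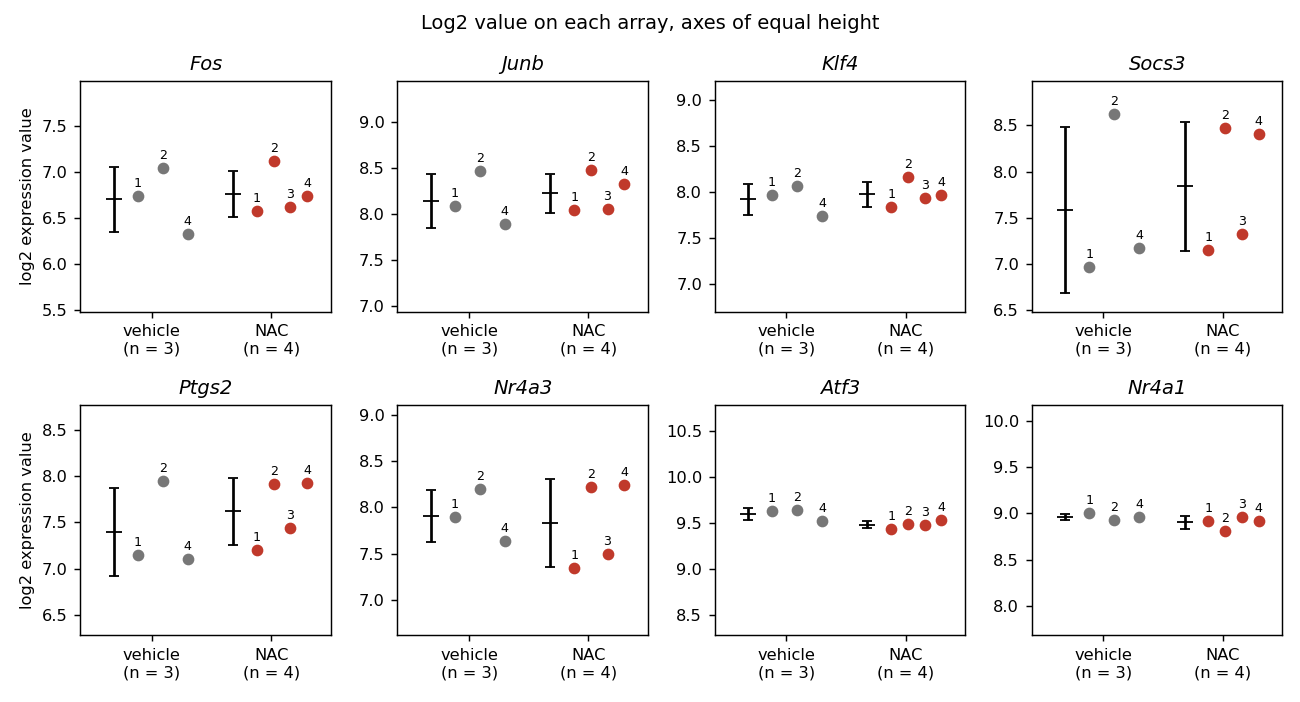
Log2 expression values of 8 genes on each array, grey for vehicle (n = 3) and red for NAC (n = 4), labelled by replicate number, with the group mean and SD as a bar at the left of each group. Vehicle 2, NAC 2 and NAC 4 stand high in Socs3 and Ptgs2, whereas Atf3 and Nr4a1 are flat on axes of the same height.

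To put the variation between mice on one scale, the SD within groups was computed for every gene. The median SD of the members was 0.161 on the log2 scale, against 0.0841 over all genes, 1.92 times as large. Of the 33 members, 15 (45.5%) lay above the 90th percentile of all genes (0.173) and 11 above the 95th (0.220). The widest were Socs3 (0.78), Ccn2 (0.47), Ptgs2 (0.41), Nr4a3 (0.41), Maff (0.35), Dusp1 (0.32), Ier3 (0.31) and Fos (0.30). The other end held 8 members below the median of all genes, which were Gadd45g, Klf2, Egr3, Dusp2, Nr4a1, Ier5, Atf3 and Rhob. Egr3, Ier2, Dusp2, Gadd45g and Rhob had the same value on 3 to 5 arrays, which 40% of all genes also had on at least 3 arrays, so a small SD here in part counts ties. Without NAC replicate 3 the ratio of the medians was 2.02, and with any other array left out it stayed between 1.81 and 2.18.

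**Figure D3:**
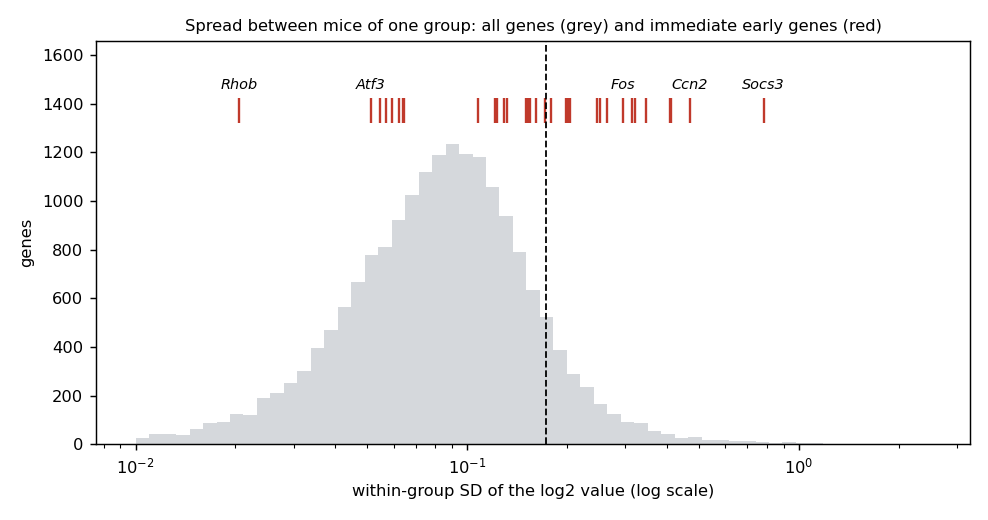
Histogram of the within-group SD of the log2 value over all genes (grey, log axis, genes with an SD under 0.01 not drawn), with a red tick for each of the 33 immediate early genes and a dashed line at the 90th percentile of all genes (0.173). Ticks lie from Rhob at 0.02 to Socs3 at 0.78, 15 of them right of the line.

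Members also varied together. Over the 528 pairs of members the median Pearson correlation across the 7 arrays was 0.467, and 47.7% of pairs were above 0.5, against a median of 0.004 and 14.2% over all pairs of genes. With the group means removed the medians were 0.552 and 0.004. Without NAC replicate 3 the median over pairs of members was 0.505. These pairs share the same 7 arrays and are not independent. A transcript that is lower on an array can stem from fewer cells that make it or from less of it per cell, and in RNA of whole tissue these cannot be told apart.

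Correlations with Fos over the 7 arrays were tested for 29 members with exact permutation tests over all 5040 pairings, two-sided, with Benjamini-Hochberg adjustment over the 29 relations. Socs3, Ptgs2 and Rhob were left out because their arrays fell into separate clusters. The correlation was above 0 for 25 members and passed for 10, which were Klf4, Junb, Klf6, Btg2, Myc, Zfp36, Csrnp1, Gadd45b, Ier3 and Maff. Klf4 followed Fos most closely (r = 0.978, exact permutation p = 0.000397, adjusted p = 0.00575, rho = 0.991, p = 0.000794, adjusted p = 0.0115), and Junb was next (r = 0.947, exact permutation p = 0.000397, adjusted p = 0.00575, rho = 0.991, p = 0.000794, adjusted p = 0.0115). For the 10 members r ranged from 0.850 to 0.978, with exact permutation p-values adjusted to at most 0.0495. By Spearman's rho 6 of the 10 passed, and Btg2, Zfp36, Csrnp1 and Gadd45b did not. Without the 2 arrays farthest from the median of Fos, vehicle replicate 4 and NAC replicate 2, r was between 0.573 and 0.938 over the remaining 5 arrays for these 10 members. Csrnp1 dropped most, from 0.885 to 0.573. On the other side, Nr4a1 (r = -0.62, rho = -0.41, exact permutation p = 0.135 and 0.360), Klf2, Gadd45g and Dusp2 had coefficients below 0, and none of these passed. Egr1 (r = 0.78, rho = 0.77, exact permutation p = 0.0405 and 0.0492) and Dusp1 (r = 0.76, rho = 0.77, exact permutation p = 0.0472 and 0.0492) missed the threshold after adjustment, at 0.0903 and 0.0928 for r and 0.102 for rho.

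The stretch before the members' start sites was searched for the motifs of factors known for this class, whether or not a member moved with Fos. A relation of motifs to the co-variation was not tested. RefSeq windows (GRCm38.p6) from 250 bases before to 50 bases after the start held 27 of the 33 members, and 27025 genes in all. Egr1, Egr3, Ier2, Myc, Ccn2 and Nfkbiz were not in this table. The 250 bases before the start are shown 5′ to 3′ along the gene for members that followed Fos closely (Fos, Junb and Klf4), with the CRE core TGACG, which CREB and related factors bind, in capitals on either strand (CGTCA when it lies on the other strand). For Dusp1 and Btg2 the capitals mark the full palindromic CRE TGACGTCA, and for Zfp36 the CArG box, the motif of SRF. The windows are Fos at chr12:85473640-85473889 (+), Junb at chr8:84978749-84978998 (-), Klf4 at chr4:55532476-55532725 (-), Dusp1 at chr17:26508473-26508722 (-), Btg2 at chr1:134079156-134079405 (-) and Zfp36 at chr7:28379229-28379478 (-). All end at the base before the annotated start of the gene.
Fos: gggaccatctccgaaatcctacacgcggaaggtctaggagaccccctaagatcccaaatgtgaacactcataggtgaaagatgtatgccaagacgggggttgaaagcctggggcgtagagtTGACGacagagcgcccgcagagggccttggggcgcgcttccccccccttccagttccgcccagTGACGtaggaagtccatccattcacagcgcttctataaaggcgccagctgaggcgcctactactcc
Junb: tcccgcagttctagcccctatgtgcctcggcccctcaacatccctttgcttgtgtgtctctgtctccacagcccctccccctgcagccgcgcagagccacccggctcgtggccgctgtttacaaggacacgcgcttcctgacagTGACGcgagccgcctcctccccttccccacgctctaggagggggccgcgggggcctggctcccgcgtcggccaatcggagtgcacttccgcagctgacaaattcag
Klf4: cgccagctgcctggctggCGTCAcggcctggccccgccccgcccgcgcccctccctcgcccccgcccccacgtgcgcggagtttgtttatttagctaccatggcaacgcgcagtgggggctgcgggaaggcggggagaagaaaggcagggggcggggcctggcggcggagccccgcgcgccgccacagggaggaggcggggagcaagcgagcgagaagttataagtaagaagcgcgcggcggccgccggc
Dusp1: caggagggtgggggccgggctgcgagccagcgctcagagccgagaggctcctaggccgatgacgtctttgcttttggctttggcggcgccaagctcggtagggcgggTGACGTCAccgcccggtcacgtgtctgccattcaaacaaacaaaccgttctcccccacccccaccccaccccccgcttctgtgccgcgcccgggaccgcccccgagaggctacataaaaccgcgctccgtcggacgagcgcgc
Btg2: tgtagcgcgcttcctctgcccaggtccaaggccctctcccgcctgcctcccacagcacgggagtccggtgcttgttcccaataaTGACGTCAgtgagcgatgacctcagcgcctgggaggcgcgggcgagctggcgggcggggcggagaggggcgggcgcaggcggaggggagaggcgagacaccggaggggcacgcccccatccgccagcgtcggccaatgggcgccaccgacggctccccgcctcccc
Zfp36: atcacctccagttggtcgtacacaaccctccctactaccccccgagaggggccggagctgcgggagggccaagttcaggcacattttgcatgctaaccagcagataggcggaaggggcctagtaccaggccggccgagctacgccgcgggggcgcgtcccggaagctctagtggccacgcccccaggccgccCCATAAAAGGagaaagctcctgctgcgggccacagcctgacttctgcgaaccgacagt

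Among the 27 members with a window, 15 (55.6%, 95% Wilson interval 37.3 to 72.4) held the CRE core TGACG on either strand, against 20.9% of all genes. The Fos window had 2, at positions -129 to -125 and -66 to -62 from the start, Junb had 1 and Klf4 had 1. Nr4a1, Nr4a2 and Nr4a3 had 4 each, although these paralogs did not share one order of arrays. The full CRE TGACGTCA, which contains the core, was in Btg2 and Dusp1 (7.41% of members, 1.85% of all genes). The EGR motif GCGNGGGCG was found in 10 members (37%, against 5.53% of all genes) and the GC box GGGCGG in 22 (81.5%, against 35.9%), and these 2 motifs can overlap. The E-box CACGTG was in 8 members (29.6%, against 7.24%), the TATA motif TATAAA in 6 (22.2%, against 14.2%) and the STAT motif TTCNNNGAA in Socs3, Zfp36 and Csrnp1 (11.1%, against 8.42%). In Zfp36 alone there was a CArG box (3.7%, against 1.59%), and the AP-1 motif TGANTCA was in 0 of the 27 windows, against 7.92% of all genes. Sites more than 250 bases before the start, and those of members without a window such as Egr1, could not be found here. The comparison was not matched for base composition, and a match of letters describes the window, not binding.

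NAC and vehicle arrays were then compared gene by gene with limma. No member was called at an adjusted p under 0.05, nor was any other of the 18938 genes (0% called), and the smallest adjusted p of any gene was 0.827. At an unadjusted p under 0.05, 0 members were higher with NAC, where 1.89% of all genes were, and 1 member was lower (Atf3), where 2.53% of all genes were. No member had groups that did not overlap, in either direction, against 1.29% of all genes with all NAC arrays higher and 2.18% with all NAC arrays lower. The shares over all genes are the background for the members' counts, and 1 of 33 is near it.

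By sign, 22 members were higher and 11 lower with NAC, with a median log2 difference of 0.04 and a range from -0.12 to 0.25. Over all genes the counts were 9433 and 9505, and the median was -0.00. Direction in the members turned on single mice. Without vehicle replicate 4, 11 members were higher and the median was -0.04. Without vehicle replicate 2, 27 were higher and the median was 0.09. Without NAC replicate 3, 23 were higher and the median was 0.07. In 29 of the 33 members the SD within groups exceeded the size of the difference. The share over all genes was not computed, so this count has no background and is not read as particular to the members.

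**Figure D4:**
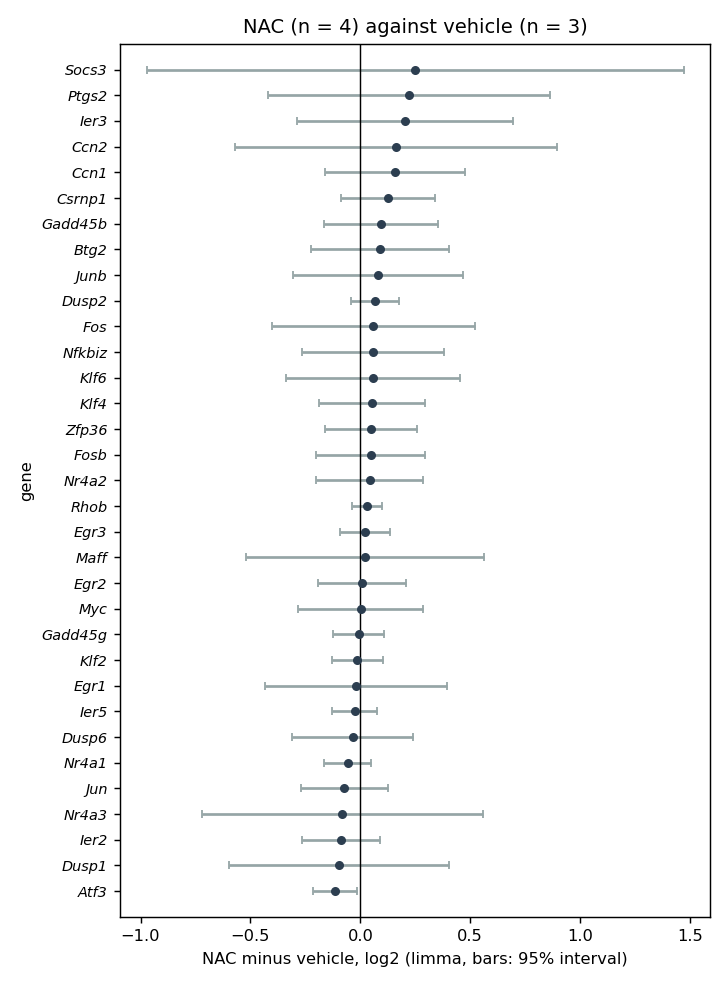
NAC minus vehicle on the log2 scale for the 33 genes, in order of size, with the limma estimate as a point and its 95% interval as a bar (n = 4 NAC and 3 vehicle arrays). The interval of Atf3 alone lies off 0, before adjustment, and that of Socs3 is the widest.

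The member with the smallest p was Atf3, lower with NAC by 0.12 on the log2 scale (-0.12, SE 0.04, 95% interval -0.21 to -0.02, limma unadjusted p = 0.0286, adjusted p = 0.827). The difference kept its sign with each array left out, between -0.15 and -0.10, and did not pass the adjustment. The next smallest p-values were those of Dusp2 (0.07, SE 0.05), Csrnp1 (0.13, SE 0.09), Nr4a1 (-0.06, SE 0.04), Ccn1 (0.16, SE 0.13), Ier2 (-0.09, SE 0.07), Rhob (0.03, SE 0.03) and Ier3 (0.20, SE 0.21), with limma unadjusted p-values from 0.200 to 0.363. The log2 difference of Fos was 0.06 (SE 0.19), with a 95% interval of 0.756-fold to 1.44-fold. For Jun it was -0.07 (SE 0.08, interval 0.828-fold to 1.09-fold) and for Egr1 -0.02 (SE 0.17, interval 0.739-fold to 1.31-fold), which turned to 0.01 after a second quantile normalization. The interval of Socs3 ran from 0.510-fold to 2.77-fold. The lack of calls therefore does not show that these genes were alike in both groups.

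Genes of the same pathway outside the list were examined in the same fit, and 0 were called in each list. The 37 measured of 40 other primary response genes had the same arrays high and low as the members, at mean log2 deviations of -0.05, 0.19 and -0.20 on the vehicle arrays and of -0.14, 0.23, -0.14 and 0.11 on the NAC arrays. Of these 37 genes, 21 were above the 90th percentile of the SD of all genes, and 22 were higher and 15 lower with NAC (median 0.03). Thbs1 and Ccl2 had the widest spread and are named for it, after their values were seen. Thbs1 (thrombospondin 1) was at 9.07, 10.73 and 8.77 in vehicle mice and at 9.53, 10.49, 8.89 and 10.60 in NAC mice. Ccl2, a chemokine that attracts monocytes, was at 6.48, 7.88 and 6.47 in vehicle mice and at 6.33, 8.33, 6.68 and 7.90 in NAC mice. Both were high on the arrays on which Socs3 was high. The smallest p in this list was that of F3 (tissue factor), 0.24 higher on the log2 scale with NAC (SE 0.09, limma unadjusted p = 0.0395, adjusted p = 0.827), followed by Egr4 (0.15) and Plk2 (-0.16).

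The upstream machinery varied little. The 13 SRF, ternary complex and CREB factors had mean deviations between -0.04 and 0.06 and none was above the 90th percentile of the SD. Of them 3 were higher and 10 lower with NAC (median -0.04), and the smallest p-values were those of Mrtfb (-0.10), Ep300 (-0.06) and Elk3 (-0.05). The 16 measured of 24 MAP kinase cascade genes had 6 higher and 10 lower (median -0.02), led by Map2k6, a kinase of p38 (-0.21, SE 0.08, limma unadjusted p = 0.0423, adjusted p = 0.827), Braf (-0.06) and Map2k4 (-0.05). Outside this machinery, among 13 other AP-1, MAF and ATF factors 6 were higher and 7 lower (median -0.01), with Atf5 at 0.09, Batf at -0.04 and Batf2 at -0.04. Their mean deviations were -0.01, 0.06 and -0.05 on the vehicle arrays and -0.09, 0.08, -0.06 and 0.06 on the NAC arrays. These were smaller than those of the members but of the same sign on every array, and 2 of the 13 were above the 90th percentile of the SD. Among 16 other feedback genes, phosphatases of the Dusp family with Spry, Spred and Socs genes, 9 were higher and 7 lower (median 0.01), with Dusp10 at 0.22, Spry1 at 0.11 and Dusp14 at 0.05. Mean deviations of these feedback genes were 0.02, 0.05 and -0.11 on the vehicle arrays and -0.01, 0.08, -0.04 and 0.02 on the NAC arrays. That is the members' sign except on vehicle replicate 1, and 3 of the 16 were above the 90th percentile of the SD.

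The heat shock genes had another order of arrays than the members. The 12 measured of 16 heat shock and chaperone genes had mean deviations of 0.22, -0.10 and 0.03 on the vehicle arrays and of -0.08, 0.15, 0.07 and -0.29 on the NAC arrays, so vehicle replicate 2 and NAC replicate 4, both high for the members, were the lowest here. Of these genes 2 were higher and 10 lower with NAC (median -0.08), with Chordc1 at -0.24, Dnaja1 at -0.15 and Hspd1 at -0.11. The 18 hypoxia-induced genes had mean deviations of 0.02, 0.05 and -0.04 on the vehicle arrays and of -0.05, 0.01, -0.03 and 0.03 on the NAC arrays, small, with the sign of the members on 6 of the 7 arrays. Among them 8 were higher and 10 lower (median -0.01), with Adm at -0.21, P4ha2 at -0.16 and Vegfa at -0.10. For YAP and TEAD targets, to whose class Ccn1 and Ccn2 belong, 9 of 13 were higher and 4 lower (median 0.04), with F3 at 0.24, Ankrd1 at -0.18 and Amotl1 at 0.08.

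**Figure D5:**
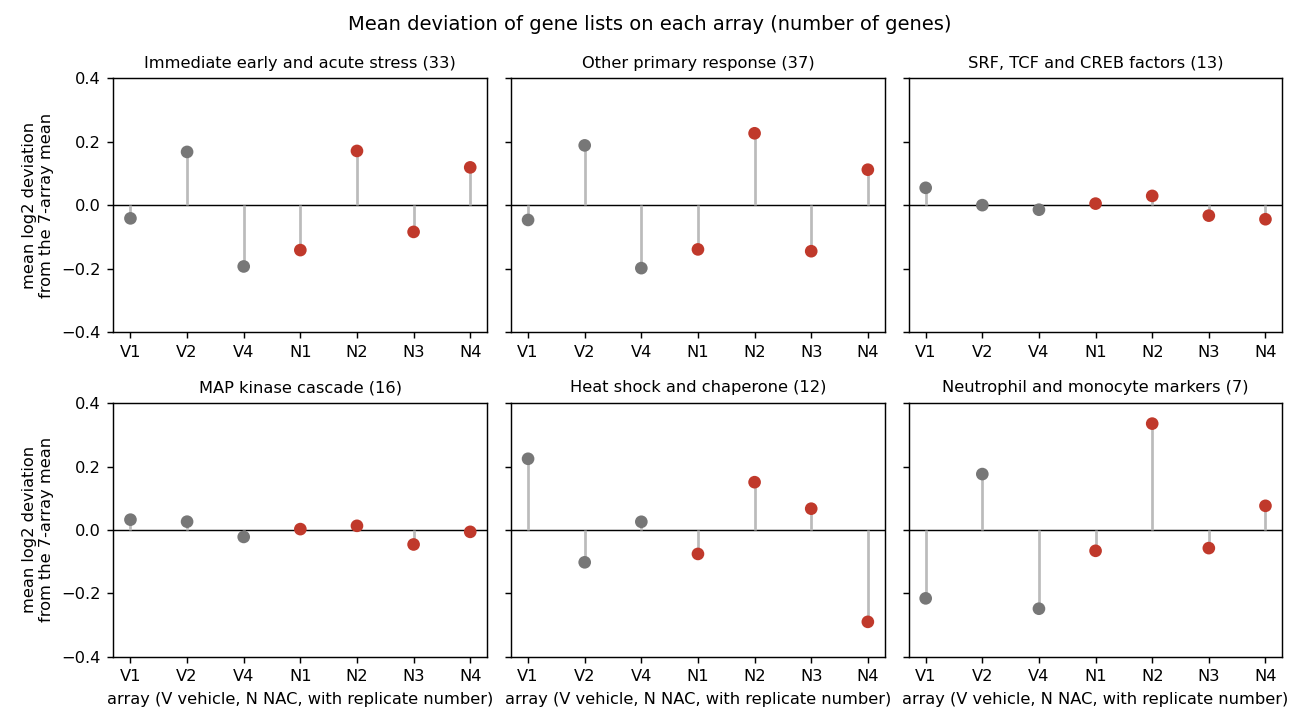
Mean log2 deviation from the 7-array mean of 6 gene lists on each array, grey for vehicle and red for NAC. The other primary response genes and the neutrophil and monocyte markers have the sign of the immediate early genes on all 7 arrays, the SRF, CREB and MAP kinase lists stay near 0, and the heat shock genes are lowest on NAC 4.

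Lists of markers of other cell types differed in their relation to the members. The 7 measured of 8 neutrophil and monocyte markers had mean deviations of -0.22, 0.18 and -0.25 on the vehicle arrays and of -0.07, 0.34, -0.06 and 0.08 on the NAC arrays, the sign of the members on all 7. Their mean log2 level was 5.27 to 5.69 on vehicle arrays and 5.45 to 5.85 on NAC arrays. Cxcr2, the neutrophil chemokine receptor, ranged from 4.28 to 5.77, Csf3r from 5.53 to 6.52, S100a8 from 4.70 to 5.45 and S100a9 from 5.70 to 6.48. On NAC replicate 4, an array high for the members, S100a8 (4.94) and S100a9 (6.03) only equalled their values on NAC replicate 3, an array low for the members. Ngp, Mpo and Elane did not share the members' order either. The granule gene Ngp stayed within 4.30 to 4.46 and was lowest on vehicle replicate 2. Mpo and Elane were at 5.88 and 6.43 on vehicle replicate 2, below their 5.89 and 6.50 on NAC replicate 1, an array low for the members. Summarized values hold no 0 from which absence could be read. The mean of the 5 basal epithelium markers had the opposite sign on all 7 arrays, at 0.09, -0.22 and 0.04 in vehicle mice and 0.34, -0.23, 0.14 and -0.17 in NAC mice. The mean log2 level of these markers was 8.01 to 8.32 on vehicle arrays and 8.0 to 8.57 on NAC arrays. Single basal markers did not all follow that mean. Krt5 did, whereas Krt14 was higher on NAC replicate 2 (7.80) than on vehicle replicate 1 (7.61). Fibroblast markers were at -0.10, -0.05 and 0.06 in vehicle mice and 0.05, -0.11, 0.18 and -0.02 in NAC mice. That is opposite to the members except on vehicle replicate 1. Lymphocyte markers were at 0.01, -0.05 and 0.06 in vehicle mice and 0.08, -0.16, 0.03 and 0.03 in NAC mice, opposite except on NAC replicate 4. Seminal vesicle genes had mean deviations of 0.17, 0.64 and 0.74 in vehicle mice and of -1.60, -0.02, -0.57 and 0.63 in NAC mice, which is another order, since vehicle replicate 4 was lowest for the members. With NAC, 5 of these 8 genes were lower at a limma unadjusted p under 0.05, where 2.53% of all genes were, and 0 were called. The part of these cell types in the members' variation was not tested.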

How the data were processed

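RNA of 1 mouse per array was measured on 7 arrays (vehicle 3, NAC 4), grouped by their labels. A further vehicle array failed the quality control of the authors. The authors deposited log2 values, made with the Affy package by RMA background correction, quantile normalization and median polish. Affy, RMA and limma are the tools named in the processing notes, without versions. Of 20696 probe sets, 18950 name 1 gene in the array's annotation and were used. Of these, 18922 had an Entrez identifier found in the RefSeq gene table of GRCm38.p6, through which symbols were updated. The 678 naming several genes and the 1068 naming none were left out, and the highest-mean probe set stood for a gene.

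The comparison used limma 3.58.1 under R 4.3.3, with lmFit and eBayes, two-sided p-values, Benjamini-Hochberg adjustment over all genes and no covariates. It was tested on simulated data. A fold change from quantile-normalized values is relative to the array as a whole. The number of arrays limits precision, and the summarized values carry no signal over background. SDs within groups were pooled over both groups. No test was run on the members as a list. Separate clusters were taken where the largest gap exceeded 0.5 of the range with at least 2 arrays on either side, a rule chosen after seeing the data. Where a gene had several promoter windows, the most upstream start was used.

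The members and lists were chosen with earlier results of these data known. Every measured member is named, with full values for the 8 with the smallest p and for Fos, Egr1, Jun and Atf3, and up to 3 genes of each other list by p. Further full values, such as those of Socs3, Ptgs2, Ccn2, Nr4a3, Junb and Klf4, were chosen after seeing their spread. Alternatives were a variance trend with robust fit, array weights, array medians subtracted, a second quantile normalization, removal of genes whose mean was under the 40th percentile, a gene's median over its probe sets, all probe sets, a replicate block and each array left out.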

Additional observations from a re-analysis of the deposited data

Results flagged for a closer look

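Of 56 results examined in the 4 NAC arrays (33 members and the means of lists), 4 had 1 array whose distance to the nearest other array was, as a share of the range, over the 95% limit of Dixon's test for 4 values, and chance alone gives about 1 in 20. Among the members this was Dusp2, at a log2 value of 6.29 on NAC replicate 4 and at one shared value of 6.22 on the other 3 NAC arrays, so it rests on ties. The mean deviation of smooth muscle markers was -0.0902 on NAC replicate 2, against -0.00 to 0.01 on the others, and 26 of the 33 members lay above their mean on that array. NAC replicate 3 had a mean deviation of 0.594 for skeletal muscle markers and of 2.19 for lung epithelium markers, against at most -0.05 and -0.31 on the other NAC arrays. Without NAC replicate 3, 0 members were called and the median difference of the members was 0.07.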

How the results depend on the processing

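No member was called under any alternative, and the lowest adjusted p of a member was 0.667. Over all genes the count called by limma was 0 to 1 with 1 array left out, the 1 gene being Crip1 without NAC replicate 4, and 0 elsewhere (357 genes higher and 479 lower had an unadjusted p under 0.05 with all arrays). The number of members higher with NAC ran from 11 (without vehicle replicate 4) to 27 (without vehicle replicate 2), and the median of the SRF, ternary complex and CREB factors from -0.051 to 0.0074. A sign was kept under every alternative by 11 members. With 1 array left out 22 changed sign, namely Fos (-0.13 to 0.23), Fosb (-0.049 to 0.093), Junb (-0.048 to 0.24), Egr1 (-0.16 to 0.082), Egr2 (-0.036 to 0.069), Egr3 (-0.015 to 0.050), Ier5 (-0.049 to 0.012), Btg2 (-0.0081 to 0.20), Dusp1 (-0.26 to 0.10), Dusp6 (-0.13 to 0.061), Klf2 (-0.048 to 0.016), Klf4 (-0.041 to 0.12), Klf6 (-0.071 to 0.17), Nr4a2 (-0.034 to 0.10), Nr4a3 (-0.22 to 0.080), Zfp36 (-0.041 to 0.10), Socs3 (-0.059 to 0.77), Myc (-0.11 to 0.093), Ccn2 (-0.076 to 0.43), Maff (-0.12 to 0.21), Gadd45g (-0.045 to 0.015) and Nfkbiz (-0.079 to 0.15). Quantile normalization again gave 0.010 for Egr1, -0.020 for Egr2, 0.0036 for Klf2 and 0.023 for Gadd45g, and array weights gave -0.020 for Egr2 and -0.042 for Maff, all of opposite sign. The cause was not tested. Of 33 results other than single members, 30 stayed within 1 SD or 1.5 times in every alternative. A change of sign could stay within this margin. With 1 array left out, medians counted as staying ran from -0.041 to 0.090 for the members and from -0.056 to 0.088 for other primary response genes. They ran from -0.036 to 0.035 for other feedback genes, from -0.17 to 0.0051 for heat shock genes and from -0.042 to 0.053 for other AP-1, MAF and ATF factors.

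Replicate numbers 1, 2 and 4 occur in both groups. Arrays with the same number deviated from their group means with correlations of 0.21, 0.29 and -0.07 over all genes for replicates 1, 2 and 4. Pairs of unlike number ran from -0.27 to 0.21. Over the members, arrays with the same number had correlations of 0.58, 0.78 and -0.45, and pairs of unlike number ran from -0.85 to 0.76. The main fit took the arrays as unpaired, and whether arrays of the same number share more than a number was not tested. With the replicate number as a block, which leaves NAC replicate 3 without a partner, 0 genes were called, 23 members were higher and their median was 0.07, with Egr1 at 0.082, Nr4a2 at -0.034 and Nr4a3 at 0.027, against the sign without the block. Signal over background could not be seen, and 3 and 4 arrays bound each difference only as widely as its interval.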
